A study of Arabidopsis thaliana with 48 samples.

Results

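Of 32678 *Arabidopsis thaliana* genes counted, 7 differed between *myc2-3* and MYC2–FLAG roots by at least 1 unit of log2(CPM + 1), with the same sign, in each of 4 combinations of light and microbes. CPM is a gene's reads as counts per 1000000 reads assigned to genes in that library. Higher in *myc2-3* were AT2G28240, AT5G08250, AT3G12900 and *LHY*, and lower were AT3G41979, *MYC2* and AT1G52710. The 7 genes are 0.0214% of all gene rows. The genes were selected on these root values, so the root differences between genotypes are given as a description, with no test. The same genes were then followed in shoots, which the choice did not use. Their responses to microbes and light within each genotype in roots are also described.

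The mutant, *myc2-3*, carries a T-DNA insertion in *MYC2*. It was set against the line labelled myc2-Flag (MYC2–FLAG below), which is *jin1-8* carrying a FLAG-tagged MYC2 under the native *MYC2* promoter. The paper's list of mutants gives the mutant as *myc2-3/jin1-8*. The comparison line is thus a complemented mutant and not wild type. Plants were 5 weeks old and grew in a gnotobiotic peat system under low light (LP, labelled Shade) or control light (NC, labelled Normal), with (+BFO) or without (−BFO) a synthetic community of bacteria, fungi and oomycetes. Roots and shoots were sequenced as 3 libraries for each of 16 groups, 48 libraries in all, from 1 experiment. Each library held 5162823 to 11045467 reads assigned to genes. The *myc2-3* and MYC2–FLAG libraries carry different project numbers, so genotype and sequencing project cannot be told apart. According to the methods, *myc2-3* samples were sequenced to more total reads, and in many of them most reads came from a latent virus. The authors judged from the clustering of *myc2-3* samples that plant expression was not significantly affected. The part of the virus in the results given here was not tested.

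MYC2 is a basic helix-loop-helix transcription factor and a central activator of jasmonate responses. Without the hormone it is held back by JAZ proteins, and when jasmonate is perceived the JAZ proteins are degraded and MYC2 binds G-box motifs in target promoters. The plant circadian clock, to which *LHY* belongs, is a set of transcription factors that repress each other in turn: *LHY* and its partner *CCA1* peak around dawn, and *PRR5*, *TOC1*, *GI* and the evening complex genes *ELF4*, *LUX* and *ELF3* peak in the afternoon and evening. Ribosomal RNA genes, of which AT3G41979 is a 5.8S copy, stand in long arrays of near-identical repeats.

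Before the single genes, the pattern they stand against is given. In roots 480 genes were at least 1 apart in absolute value in all 4 conditions, and in 459 of them (95.6%) the sign followed the BFO label, being one way in both −BFO conditions and the other way in both +BFO conditions. Of these, 300 were lower in *myc2-3* without BFO and higher with it, and 159 were the reverse. The 7 genes kept 1 sign, and 14 others had mixed signs. Whether BFO labels were exchanged within a genotype was not tested. When the difference was averaged over both BFO states at each light level, so that the BFO label had no part in it, 23 genes were higher and 27 lower by at least 1 at NC and at LP. The 7 genes are among these by construction, since each differs by at least 1 in every condition. The summed level of 12 leaf markers in roots was 120 to 752 CPM (median 293) in *myc2-3* and 303 to 1179 CPM (median 489) in MYC2–FLAG, against 52689 to 114453 CPM in shoots, with all 12 genes detected in roots. The root ranges overlapped, and 6 of the 12 leaf markers had 1 sign in all 4 conditions, all lower in *myc2-3*. Of the 21098 genes with more than 100 reads over all libraries, 8.04% had 1 sign in all 4 conditions. The 8 root markers summed to 745 to 1240 CPM in *myc2-3* roots and 548 to 1275 CPM in MYC2–FLAG roots. The part of such material in the differences was not tested.

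A pair of sequence sets bears on what follows, and both come from the RefSeq annotation of the TAIR10.1 build, while the authors counted on TAIR10. The first shows how little separates the 5.8S rRNA row from its copy. AT3G41979 (chr3:14199753-14199916, plus strand) and the other annotated 5.8S row, AT2G01020 (chr2:5782-5945, plus strand), are identical over all 164 bases, and so are the 150 bases after them. In the 150 bases before them, chr3:14199603-14199752 and chr2:5632-5781, they differ at 2 positions, shown in capitals, which are G55A and C136T counted from 1 at the 5′ end of the stretch, with the AT3G41979 base first. The shared 5.8S sequence is given on the first line and the stretches before it on the next lines.
5.8S rRNA of both rows: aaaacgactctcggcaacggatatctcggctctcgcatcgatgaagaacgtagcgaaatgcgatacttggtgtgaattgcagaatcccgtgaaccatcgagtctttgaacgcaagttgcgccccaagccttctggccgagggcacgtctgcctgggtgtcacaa
Before AT3G41979: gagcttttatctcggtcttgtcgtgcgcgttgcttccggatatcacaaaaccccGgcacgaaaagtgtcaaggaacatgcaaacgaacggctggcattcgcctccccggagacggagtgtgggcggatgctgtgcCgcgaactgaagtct
Before AT2G01020: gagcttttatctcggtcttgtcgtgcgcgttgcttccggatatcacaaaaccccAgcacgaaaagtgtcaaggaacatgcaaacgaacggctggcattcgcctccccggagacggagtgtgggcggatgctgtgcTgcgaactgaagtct

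The second is the *LHY* promoter, shown because it holds the only motif match among the members. The 250 bases before the annotated start of *LHY* (chr1:37872-38121, minus strand, TAIR10.1) contain 1 G-box, CACGTG, in capitals, whose first base is at -80 from the start.
LHY promoter: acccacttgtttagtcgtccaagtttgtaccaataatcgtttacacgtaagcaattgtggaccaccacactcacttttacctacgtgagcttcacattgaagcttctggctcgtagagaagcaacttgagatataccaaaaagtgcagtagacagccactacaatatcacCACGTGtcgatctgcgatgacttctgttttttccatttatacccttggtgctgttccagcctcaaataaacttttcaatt
Over 250 bases before to 50 after the start and on both strands, CACGTG was present in 1 of the 6 protein-coding members and in 7.68% of 27443 protein-coding promoters. The related CACATG or CATGTG was in 0 of 6 members and 12.9% of promoters. The evening element AAAATATCT, the site through which LHY and CCA1 act on evening genes, was in 0 of 6 members and 2.82% of promoters. A match is only a run of letters, and its absence says nothing of binding.

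**Figure D1:**
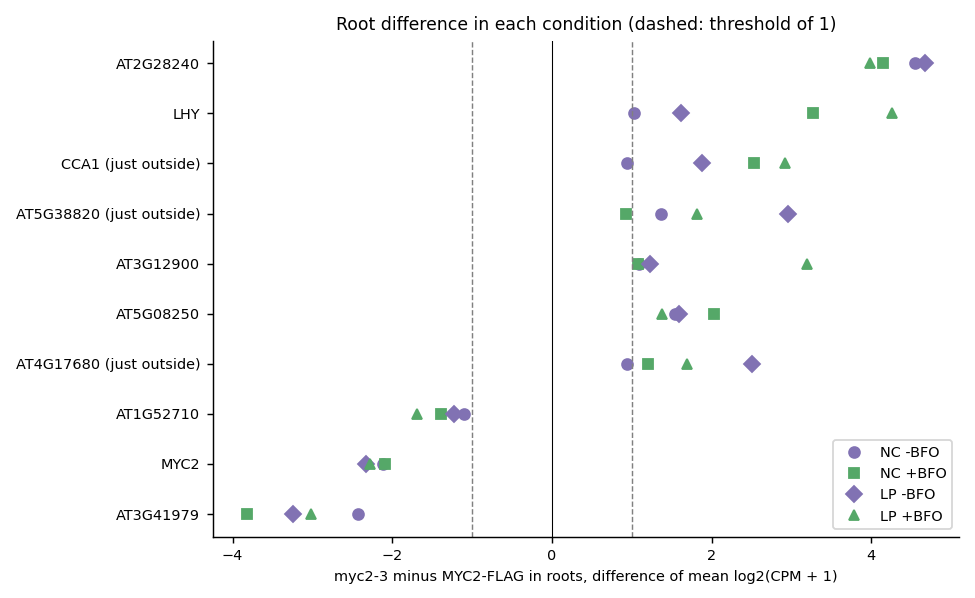
Root difference between *myc2-3* and MYC2–FLAG (horizontal axis, difference of mean log2(CPM + 1), positive where *myc2-3* was higher) for the 7 genes and the 3 genes just outside the threshold, 1 symbol for each condition. All 4 symbols of a member lie past the dashed line at 1 on the same side, and those of *MYC2* lie closest together, between -2.09 and -2.33.

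AT2G28240 (chromosome 2, 12039208 to 12042175, plus strand) differed most. Its product is annotated as an ATP-dependent helicase family protein. It had 17.1 to 27.0 CPM (median 21.1) in the 12 *myc2-3* root libraries and 0 to 0.417 CPM (median 0.0685) in the 12 MYC2–FLAG root libraries. The *myc2-3* libraries held 2128 of its root reads and the MYC2–FLAG libraries 12. Every *myc2-3* root library was above every MYC2–FLAG one, and the difference was 4.14 at NC +BFO and 4.54 at NC −BFO, and 3.98 at LP +BFO and 4.68 at LP −BFO. The ratio of pooled CPM was 186. At LP −BFO all 3 MYC2–FLAG libraries had 0 reads, so the level in *myc2-3* was at least 210-fold higher than a floor of 3 reads over those libraries. Its neighbours did not share the pattern. AT2G28230 averaged 10.2 CPM in both genotypes. *NCRK* (AT2G28250), a receptor-like kinase gene, averaged 33.4 CPM in *myc2-3* and 26.1 CPM in MYC2–FLAG roots. At LP −BFO *NCRK* averaged 46.1 CPM in *myc2-3* and 21.7 CPM in MYC2–FLAG roots, without overlap. In each other condition its root libraries overlapped between genotypes.

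*LHY* (AT1G01060, chromosome 1), the dawn-phased MYB factor of the clock, averaged 18.4 ± 7.12 CPM in *myc2-3* and 8.32 ± 2.47 CPM in MYC2–FLAG roots at NC −BFO (SD, n = 3 each, as for all means of a condition below). At NC +BFO the means were 28.7 ± 5.28 CPM in *myc2-3* and 2.13 ± 0.941 CPM in MYC2–FLAG. At LP −BFO they were 60.4 ± 10.0 CPM in *myc2-3* and 18.8 ± 1.83 CPM in MYC2–FLAG, and at LP +BFO 50.5 ± 10.7 CPM in *myc2-3* and 1.74 ± 0.795 CPM in MYC2–FLAG. No condition showed overlap between genotypes, but across conditions there was some: MYC2–FLAG libraries at LP −BFO (17.7, 21.0 and 17.9 CPM) reached into the range of *myc2-3* at NC −BFO (16.2, 12.6 and 26.4 CPM). The differences ran from 1.03 at NC −BFO to 4.26 at LP +BFO, a wider spread over conditions than any other member had.

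AT3G12900 (chromosome 3, 4104463 to 4106341, plus strand) encodes an oxygenase of the 2-oxoglutarate and Fe(II)-dependent family, known as scopoletin 8-hydroxylase, which makes the iron-mobilizing coumarin fraxetin in iron-starved roots. It had 28.6 to 163 CPM (median 68.9) in *myc2-3* roots and 6.70 to 84.6 CPM (median 25.01) in MYC2–FLAG roots. The ranges overlapped over all 12 libraries and not within any condition. At LP +BFO, where the difference was largest (3.19), it had 70.5, 98.6 and 67.3 CPM in *myc2-3* and 7.51, 6.70 and 8.68 CPM in MYC2–FLAG. In the other 3 conditions the differences were 1.07 to 1.23, close to the threshold. In bulk tissue, fewer cells of a type and less RNA per cell cannot be told apart, here or for any gene below.

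Genes of the same pathway, picked after their values were seen, gave a mixed picture. AT3G13610, known as F6′H1, which acts before this enzyme in coumarin synthesis, averaged 270 ± 31.2 CPM in *myc2-3* and 102 ± 11.3 CPM in MYC2–FLAG at NC +BFO, but 117 ± 20.5 CPM in *myc2-3* and 435 ± 25.2 CPM in MYC2–FLAG at NC −BFO. *CYP82C4*, the enzyme that acts after AT3G12900, averaged 275 ± 36.6 CPM in *myc2-3* and 17.6 ± 2.03 CPM in MYC2–FLAG at LP +BFO, and 88.0 ± 22.9 CPM in *myc2-3* and 148 ± 48.4 CPM in MYC2–FLAG at NC −BFO. AT3G13610 and *CYP82C4* both had lower means in *myc2-3* in both −BFO conditions and higher means in both +BFO conditions. Their sign thus followed the BFO label, as in the pattern given above. For *CYP82C4* the libraries overlapped in both −BFO conditions. *IRT1*, the main iron importer of the root epidermis, had a higher mean in *myc2-3* in all 4 conditions, by 0.13 to 2.29. At LP +BFO it had 472 ± 137 CPM in *myc2-3* and 93.2 ± 11.9 CPM in MYC2–FLAG. At NC +BFO (233 ± 38.1 CPM in *myc2-3* and 190 ± 40.3 CPM in MYC2–FLAG) and at LP −BFO (377 ± 118 CPM in *myc2-3* and 365 ± 195 CPM in MYC2–FLAG) the libraries overlapped.

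AT5G08250 (chromosome 5, 2653554 to 2655870, minus strand), a cytochrome P450, was a low-level gene that moved evenly. It had 2.92 to 7.51 CPM (median 4.57) in *myc2-3* roots and 0.0905 to 2.50 CPM (median 0.664) in MYC2–FLAG roots, with no overlap, and differences of 1.37 to 2.03. These rest on 484 reads over 12 *myc2-3* libraries and 95 over 12 MYC2–FLAG libraries.

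Among the genes that were lower, *MYC2* (AT1G32640, chromosome 1) is the mutated gene. Its root level was part of the choice and checks no label, whereas its shoot level, given below, bears on the genotype label and not on the BFO label. In roots it had 29.0 to 51.2 CPM (median 43.9) in the 12 *myc2-3* root libraries and 134 to 258 CPM (median 200.08) in the 12 MYC2–FLAG root libraries. No library of either genotype fell in the range of the other. The mean level in *myc2-3* was 0.21 of that in MYC2–FLAG, so reads of *MYC2* were still present in the mutant, and the table does not show from which part of the gene. The 4 differences, -2.12, -2.09, -2.33 and -2.28, spanned the narrowest range of all members.

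AT3G41979, the 5.8S rRNA row, had 0.227 to 1.97 CPM (median 1.05) in *myc2-3* roots and 8.63 to 30.1 CPM (median 16.7) in MYC2–FLAG roots, with differences of -2.43 to -3.82. The identical copy AT2G01020 did not follow: it averaged 19.0 CPM in *myc2-3* and 14.8 CPM in MYC2–FLAG roots, and the libraries overlapped. Of the reads on both rows, AT3G41979 took 1.42% to 8.46% (median 4.98%) in *myc2-3* roots and 45.2% to 59.6% (median 55.3%) in MYC2–FLAG roots. In shoots, where both rows were low, the shares were 0% to 13.0% (median 5.97%, 205 reads in all) in *myc2-3* and 37.5% to 82.4% (median 54.5%, 251 reads) in MYC2–FLAG. The genotypes thus differed in the split between identical copies. The level of 5.8S rRNA cannot be read from these rows, since reads inside the identical stretch have no unique place. The 18S rRNA row AT3G41768 had no constant sign, with 1594 ± 395 CPM in *myc2-3* and 1020 ± 105 CPM in MYC2–FLAG at LP +BFO against 827 ± 276 CPM in *myc2-3* and 2572 ± 247 CPM in MYC2–FLAG at LP −BFO.

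**Figure D2:**
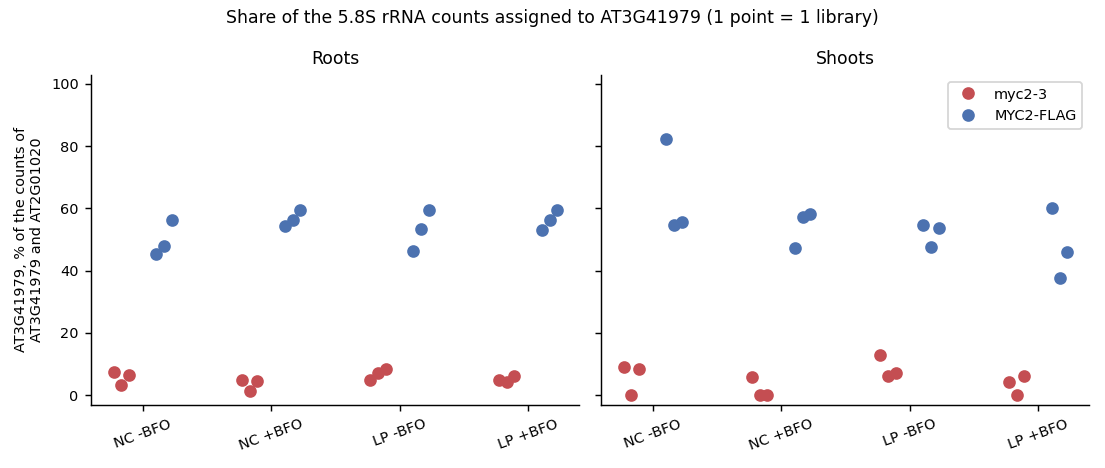
Share of the reads on the 5.8S rRNA rows that was assigned to AT3G41979 (vertical axis, percent of AT3G41979 plus AT2G01020), 1 point for each library, by condition and genotype. Every *myc2-3* library lies at 13.0% or less and every MYC2–FLAG library at 37.5% or more, in roots and in shoots.

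AT1G52710 (chromosome 1, 19638285 to 19640512, minus strand) encodes a rubredoxin-like protein. It had 3.32 to 7.73 CPM (median 5.93) in *myc2-3* roots and 12.3 to 20.6 CPM (median 15.2) in MYC2–FLAG roots. The genotypes did not overlap in any root library. The differences, -1.1 to -1.69, were the smallest among the genes that were lower.

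**Figure D3:**
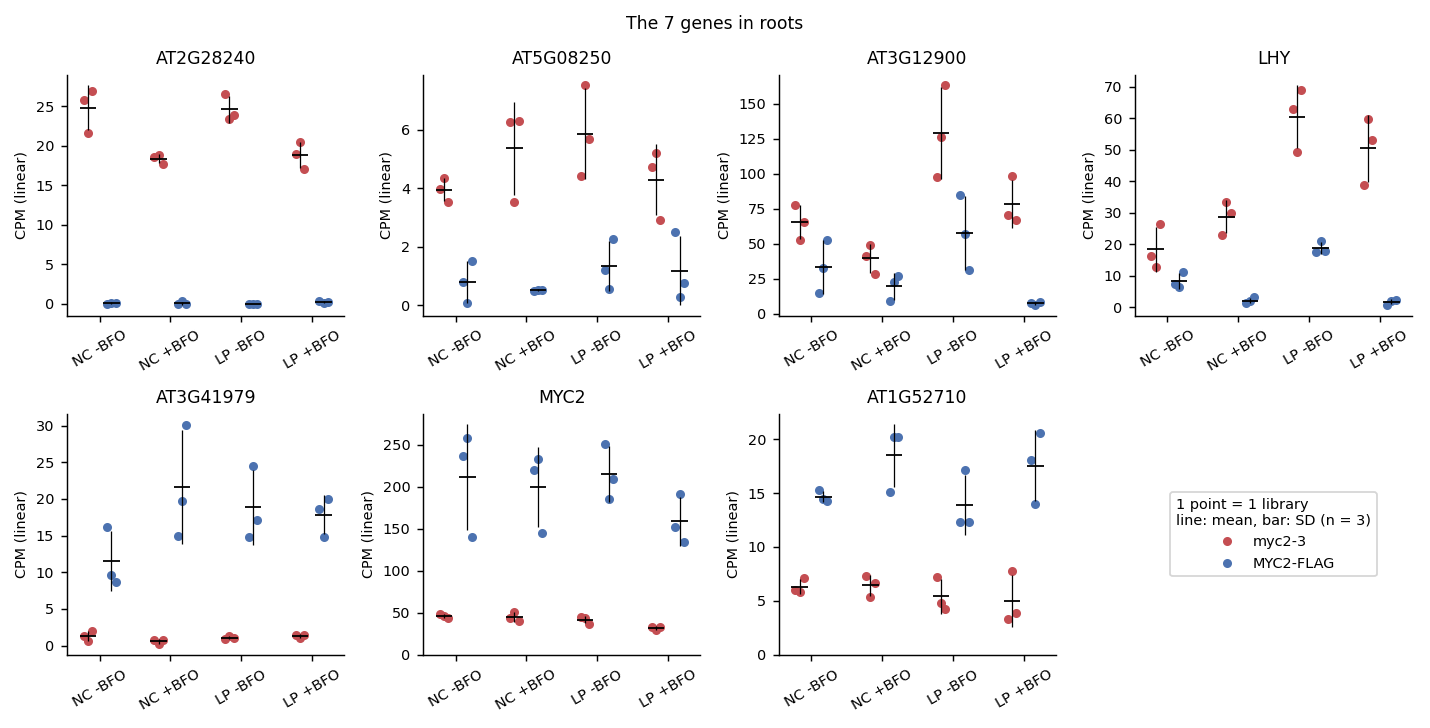
CPM of the 7 genes in roots (vertical axes, linear) by condition, with *myc2-3* left of MYC2–FLAG. Points are libraries, horizontal lines are means and vertical bars are the SD of 3 libraries. The groups separate in every condition, and the gap of *LHY* and AT3G12900 is widest at LP +BFO in log2 units (4.26 and 3.19).

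Over all 12 libraries of each genotype, 5 of the 7 genes did not overlap in roots, all but *LHY* and AT3G12900. This was so for 0.0901% of the 21098 genes with more than 100 reads over all libraries, and since the choice used these values nothing is read from it. The members just inside the threshold were *LHY*, AT3G12900 and AT1G52710, whose smallest differences were 1.03, 1.07 and 1.1. Just outside it stood AT4G17680 (0.94), *CCA1* (0.94) and AT5G38820 (0.93), all higher in *myc2-3*. At a threshold of 0.5 the rule would take 36 genes, at 0.75 it would take 11, and at 1.5 or 2 it would take 3, which are AT2G28240, AT3G41979 and *MYC2*. By product, 6 members were protein-coding and 1 was rRNA, against 97.0% protein-coding among the genes tested. No members were neighbours.

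No shoot library entered the choice, so the same genes were tested in shoots. All 7 passed the filter of more than 100 reads over the 48 libraries, but AT3G12900 and AT5G08250 did so through roots alone. AT5G08250 also needed its *myc2-3* reads, having 95 in MYC2–FLAG roots and 1 in MYC2–FLAG shoots. AT2G28240 passed through *myc2-3* alone, with 12 reads in all MYC2–FLAG libraries. The call of AT2G28240 in shoots is therefore given as a description. Averaged over the 4 conditions, *LHY* was called higher in *myc2-3* shoots, where 1.03% of genes tested were called higher, and AT2G28240 met the same thresholds. Also called were 2 as lower, *MYC2* and AT3G41979, where 0.924% of genes were called lower (edgeR quasi-likelihood test, absolute log2FC of at least 1 and FDR under 0.05 over 21098 genes). The calls of *LHY*, *MYC2* and AT3G41979 had the direction seen in roots, and AT2G28240, given as a description, was higher in *myc2-3* in both tissues.

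AT2G28240 was detected in every *myc2-3* shoot library, at 7.99 to 17.7 CPM (median 12.2), and had 0 reads in every one of the 12 MYC2–FLAG shoot libraries. Against a floor of 3 reads over those 12 libraries it was at least 411-fold higher in *myc2-3* shoots. *MYC2* had 4.53 to 14.8 CPM (median 7.07) in *myc2-3* shoots and 43.1 to 319 CPM (median 87.9) in MYC2–FLAG shoots, a log2FC of -3.71 ± 0.21 (SE, edgeR, FDR = 6.76e-18). AT3G41979 had 0 to 0.396 CPM in *myc2-3* shoots and 0.776 to 2.28 CPM in MYC2–FLAG shoots, a log2FC of -3.44 ± 0.37 (SE, edgeR, FDR = 1.27e-09) that rests on 11 reads in *myc2-3* and 136 in MYC2–FLAG. The genotypes did not overlap in shoots for these 3 genes, as for 0.294% of genes tested, AT2G28240 being given as a description.

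*LHY* had 2.09 to 17.5 CPM (median 10.5) in *myc2-3* shoots and 0.364 to 5.29 CPM (median 1.81) in MYC2–FLAG shoots, a log2FC of 2.41 ± 0.19 (SE, edgeR, FDR = 3.87e-13) over the 4 conditions. The mean hides a gradient. At NC −BFO *LHY* averaged 15.0 ± 2.2 CPM in *myc2-3* and 0.874 ± 0.535 CPM in MYC2–FLAG, and at LP +BFO 4.19 ± 1.86 CPM in *myc2-3* and 3.79 ± 0.701 CPM in MYC2–FLAG. The log2FC was 4.11 at NC −BFO, 3.71 at NC +BFO, 1.80 at LP −BFO and 0.02 ± 0.35 (SE, edgeR, FDR = 1) at LP +BFO, the only condition in which it was not called. *CCA1*, just outside the rule, was called higher in *myc2-3* shoots at NC −BFO (148 ± 6.74 CPM in *myc2-3* and 13.0 ± 0.116 CPM in MYC2–FLAG) and at NC +BFO. At LP −BFO it was not called, with 56.9 ± 3.53 CPM in *myc2-3* and 37.9 ± 3.39 CPM in MYC2–FLAG (log2FC 0.63, edgeR, FDR = 0.0744). It was called lower at LP +BFO, with 19.5 ± 5.42 CPM in *myc2-3* and 76.0 ± 2.84 CPM in MYC2–FLAG.

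AT1G52710 did not reach the fold threshold over the 4 conditions, with a log2FC of -0.57 ± 0.18 (SE, edgeR, FDR = 0.0131). It was called lower at NC −BFO (log2FC -1.22) and NC +BFO (-1.14), and had a log2FC of -0.57 at LP −BFO and 0.66 at LP +BFO, where it was not called. The first call was lost without *myc2-3* replicate 3 (-0.92), and the second without *myc2-3* replicate 2 (-1.06) or 3 (-0.94) or MYC2–FLAG replicate 1 (-1.06). AT3G12900 had 2 reads in all *myc2-3* shoots and 0 in all MYC2–FLAG shoots, and AT5G08250 had 4 in *myc2-3* and 1 in MYC2–FLAG, so for these genes no difference was detectable in shoots at this depth. By condition, the members called in either direction were 5 of 7 at NC −BFO (16.5% of genes tested), 5 at NC +BFO (3.9%), 4 at LP −BFO (3.59%) and 3 at LP +BFO (19.4%). AT2G28240, whose call is a description only, is counted in each of these. The call of AT3G41979 at LP −BFO (-2.32) was lost without MYC2–FLAG replicate 3 (-2.05) or *myc2-3* replicate 2 (-1.98).

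Whether the genotype difference in shoots itself varied with light or microbes was tested with interaction terms, added after the data were seen. Light and BFO directions in shoots follow the labels as given, and whether these were exchanged within a genotype was not tested. Between LP and NC it differed for *LHY* and AT1G52710, 2 of 7 members, where 18.5% of genes tested were called. The *LHY* difference was smaller at LP (log2 change -3.002 ± 0.39, SE, edgeR, FDR = 3.35e-08), and that of AT1G52710 moved by 1.22 ± 0.35 (SE, edgeR, FDR = 0.0042). Between +BFO and −BFO it differed for *MYC2* alone (-1.19 ± 0.42, SE, edgeR, FDR = 0.0273), 1 of 7 members against 9.64% of genes. *MYC2* in MYC2–FLAG shoots at LP +BFO was the most scattered of all groups, at 195, 46.2 and 319 CPM, beside 8.32, 7.42 and 5.33 CPM in *myc2-3*. That call was lost without MYC2–FLAG replicate 3 of that group (-0.88) and without any of *myc2-3* replicates 3 at NC −BFO (-0.96), 1 at NC +BFO (-1.05), 1 at LP −BFO (-1.12) and 3 at LP +BFO (-1.08).

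**Figure D4:**
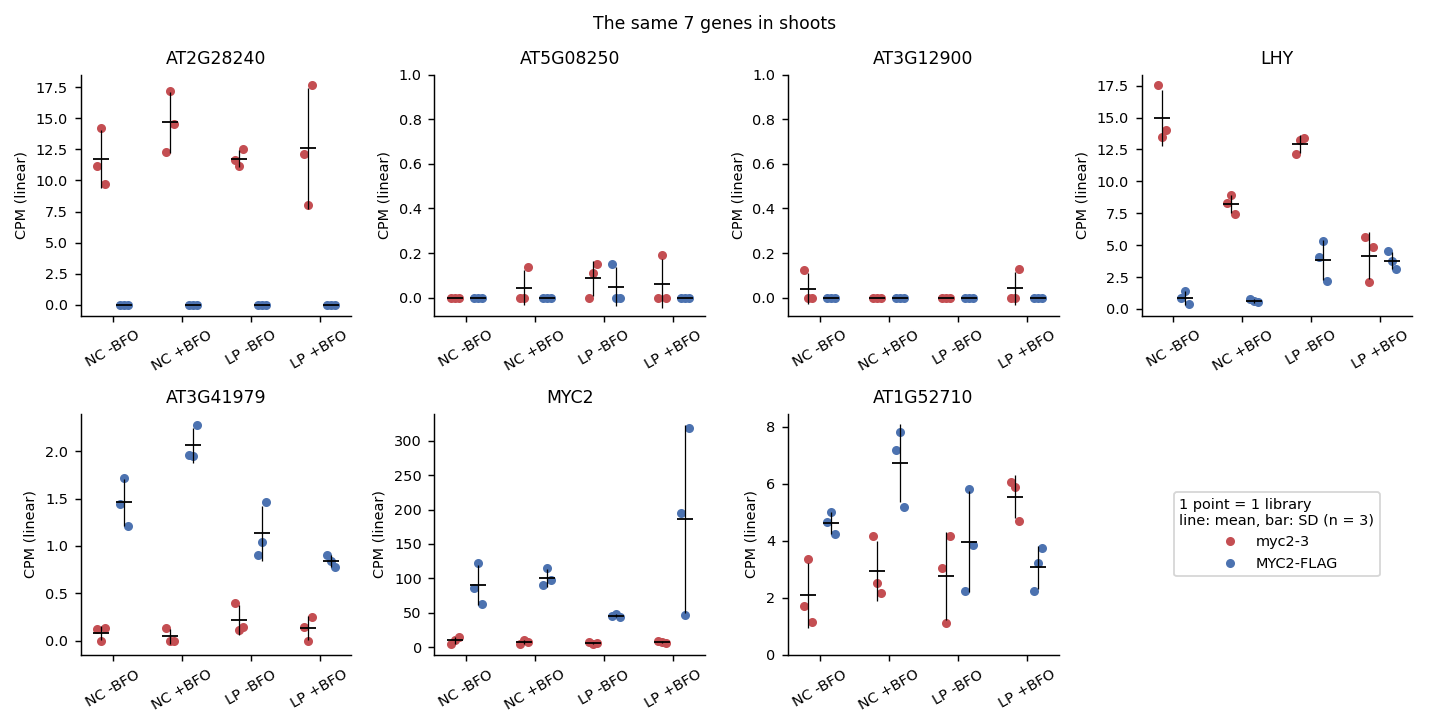
CPM of the same genes in shoots (vertical axes, linear), drawn as for roots. AT2G28240 is at 0 in all MYC2–FLAG libraries, AT5G08250 and AT3G12900 are at or near 0 throughout, and the *LHY* groups lie apart except at LP +BFO.

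Within each genotype the root libraries also show how the members respond to microbes and light. These contrasts use the same libraries that chose the members. The rule dropped genes whose genotype difference changed sign with BFO or light, which limits the responses that members can show. The calls and p-values are therefore given as a description, and nothing is read from the counts beside the shares of all genes. The BFO directions follow the labels as given, and whether these were exchanged within a genotype was not tested. For +BFO against −BFO, 0 members were called in *myc2-3* roots (10.3% of genes tested; 2 members had an unadjusted p under 0.05, and DESeq2 and limma-voom also called 0) and 3 in MYC2–FLAG roots (12.9%). In *myc2-3*, AT3G12900 (log2FC -0.74, FDR = 0.0115) and AT2G28240 (-0.43, FDR = 0.0164) passed the FDR in edgeR and missed only the fold threshold. In MYC2–FLAG, *LHY* fell with BFO (log2FC -2.67 ± 0.23, SE, edgeR, FDR = 2.26e-12), being 2.13 CPM with and 8.32 CPM without BFO at NC, and 1.74 CPM with and 18.8 CPM without BFO at LP. AT3G12900 fell (log2FC -1.84 ± 0.26, SE, edgeR, FDR = 1.32e-06), being 7.63 ± 0.994 CPM with and 57.8 ± 26.6 CPM without BFO at LP. At NC it was 19.7 ± 9.47 CPM with and 33.7 ± 19.1 CPM without BFO, and the libraries overlapped. The third was AT2G28240 (log2FC 1.98 ± 0.82, SE, edgeR, FDR = 0.0467), counted above but no support, since this gene passed the read filter through *myc2-3* alone. That call rests on 9 reads in 6 +BFO libraries and 3 reads in 6 −BFO libraries. It was lost under DESeq2 (FDR = 0.0817). It was also lost on leaving out any of 8 MYC2–FLAG root libraries, namely replicates 1 and 3 at NC −BFO, 2 at NC +BFO, all 3 at LP −BFO and 1 and 3 at LP +BFO, and without replicate 2 at NC +BFO the log2FC was 0.56.

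For LP against NC, 2 members were called in *myc2-3* roots (0.739% of genes tested) and 0 in MYC2–FLAG roots (0.555%; 1 member, AT5G08250, had an unadjusted p under 0.05, and DESeq2 and limma-voom also called 0). In *myc2-3*, *LHY* rose under LP by a log2FC of 1.29 ± 0.16 (SE, edgeR, FDR = 2.40e-06), with 60.4 CPM at LP and 18.4 CPM at NC without BFO, and 50.5 CPM at LP and 28.7 CPM at NC with BFO. AT3G12900 rose by 1.01 ± 0.23 (SE, edgeR, FDR = 0.0115), with 129 ± 32.6 CPM at LP and 65.4 ± 12.2 CPM at NC without BFO. That call stands at the fold threshold and was lost, with log2FC of 0.91 to 0.95, on leaving out any of 4 *myc2-3* root libraries (replicate 2 at NC −BFO, 3 at NC +BFO, 3 at LP −BFO or 2 at LP +BFO). *MYC2*, AT3G41979, AT1G52710 and AT5G08250 were called in none of these 4 root contrasts.

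The pathways to which the members belong were described through lists. Of 18 clock genes, all tested, 4 were called higher in *myc2-3* shoots over the 4 conditions (1.03% of all genes tested), 7 lower (0.924% of all genes) and 7 not called, with a median log2FC of -0.08 (0.01 over all genes tested). Those called higher were *LHY*, *CCA1* (1.18 ± 0.13), *RVE1* (1.53 ± 0.12) and *RVE8* (1.32 ± 0.15), which are morning-phased MYB factors. Those called lower were *PRR5* (-2.33 ± 0.08), *TOC1* (-1.39 ± 0.06), *GI* (-1.32 ± 0.06), *ELF4* (-4.40 ± 0.32), *LUX* (-2.04 ± 0.08), *BOA* (-2.36 ± 0.42) and *FKF1* (-4.39 ± 0.13), which peak later in the day (log2FC ± SE, edgeR, FDR at most 3.96e-05). For some of these genes the means hide a different picture at LP +BFO. There *RVE1* had 8.56 ± 1.44 CPM in *myc2-3* and 13.4 ± 0.872 CPM in MYC2–FLAG shoots, and *RVE8* 8.67 ± 2.3 CPM in *myc2-3* and 12.8 ± 1.14 CPM in MYC2–FLAG, both without overlap and both lower in *myc2-3*, like *CCA1*. *LUX* was on the other side, with 24.1 ± 3.53 CPM in *myc2-3* and 18.1 ± 1.21 CPM in MYC2–FLAG, and *BOA* had 0.935 ± 0.713 CPM in *myc2-3* and 0.365 ± 0.205 CPM in MYC2–FLAG, with overlap. Other genes kept their side at LP +BFO, such as *PRR5*, with 44.1 ± 0.0717 CPM in *myc2-3* and 138 ± 21.9 CPM in MYC2–FLAG. For *PRR5*, *GI*, *ELF4* and *FKF1* every *myc2-3* shoot library was below every MYC2–FLAG one. The light receptor *ZTL*, whose transcript is not rhythmic, had a log2FC of 0.01 ± 0.06. According to the methods all groups were harvested at the same hour of the day.

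In roots 8 of the 18 clock genes had 1 sign in all 4 conditions, where 8.04% of all genes tested did. The choice used these root values and *LHY* is counted by construction, so nothing is read from the count. *LHY*, *CCA1*, *RVE8*, *RVE1* and *LNK2* were higher in *myc2-3*, and *LUX*, *ELF4* and *BOA* were lower. *LHY* was the only one to reach 1 in all 4. Some of the differences were near 0, such as -0.07 for *BOA* at NC −BFO and at LP −BFO. The BFO states differed for some of these genes, which was not tested: *ELF4* had -2.28 and -2.43 at NC +BFO and LP +BFO, and -0.29 and -1.11 at NC −BFO and LP −BFO, and *FKF1* had -3.25 and -3.27 with BFO, and 0.69 and 0.01 without.

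**Figure D5:**
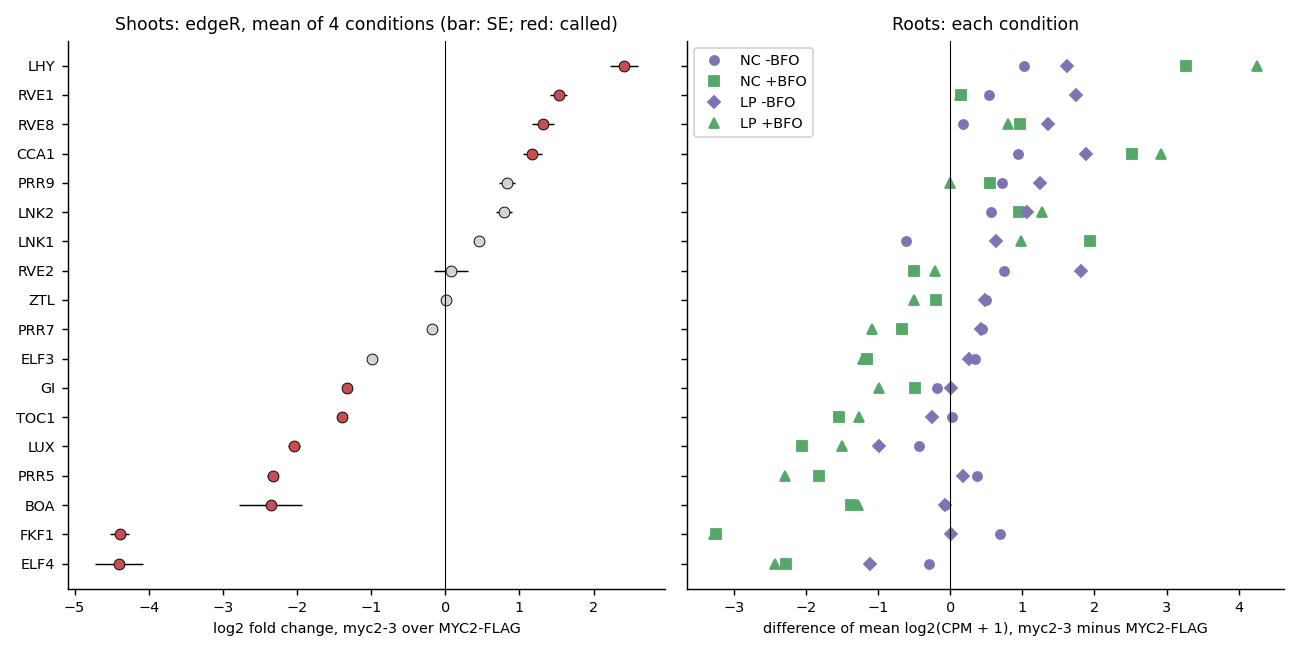
Clock genes by difference between *myc2-3* and MYC2–FLAG. Left, log2FC in shoots over the 4 conditions with its SE, red where called. Right, difference of mean log2(CPM + 1) in roots, 1 symbol for each condition. *LHY* is at the top in shoots (2.41) and right of 1 in every root condition, and *ELF4* (-4.40) and *FKF1* (-4.39) are at the bottom in shoots.

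Of 58 jasmonate genes other than *MYC2*, 56 were tested, and 0 were called higher (1.03% of all genes tested) and 3 lower (0.924%) in *myc2-3* shoots, with a median log2FC of -0.32. These were the synthesis gene *AOC2* (-1.16 ± 0.17) and the defence outputs *VSP2* (-1.11 ± 0.27) and *PDF1.2a* (-1.21 ± 0.42). None of the 12 *JAZ* repressors was called (median -0.32), nor any of 6 receptor and bHLH genes (median 0.07). In roots 2 of the 56 jasmonate genes had 1 sign in all 4 conditions, both lower in *myc2-3*, where 8.04% of all genes tested did, and 0 met the rule. The choice used these root values, so nothing is read from this count either. Of 12 leaf and 8 root markers, 0 were called between genotypes in shoots.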

How the data were processed

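RNA was sequenced from roots and shoots of both lines, 3 libraries for each of 16 groups. The authors aligned reads with TopHat2 to TAIR10 and counted reads per gene on the reverse strand with HTSeq, and the deposited values are raw counts in 1 table for each line. The counter's summary rows were left out of library sizes: reads with several alignments were 1.46% to 5.90% of a table column, reads outside genes 1.23% to 4.08% and ambiguous reads 0.451% to 0.900%.

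Members were chosen from root log2(CPM + 1), with CPM taken over gene rows. Tests used edgeR 4.0.16 in R 4.3.3 (quasi-likelihood, TMM, 1 mean for each of 16 groups) on the 21098 genes with more than 100 counts over 48 libraries, with Benjamini–Hochberg adjusted p (FDR) over all of them. A gene was called at an absolute log2FC of at least 1 and FDR under 0.05. On simulated data for the mean shoot genotype contrast, 200 of 200 genes changed by a log2FC of 2 were recovered and 0 of the others were called. The changed genes had more than 20 expected counts in the smallest library, and no other effects were simulated. The result therefore does not cover genes with few reads or changes near a log2FC of 1. The rule for named genes took *MYC2*, the members with the largest smallest difference over the 4 conditions and a mean of at least 20 counts in the root libraries of 1 genotype (here all 7), the 3 genes just outside the threshold and members in the jasmonate and clock lists. Other genes of the lists, neighbours, rRNA rows and coumarin and iron genes were named after their values were seen. The members and lists were chosen with earlier results of these data known.

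Alternatives were DESeq2 1.42.0, limma-voom (limma 3.58.1), other size factors, filters, pseudocounts and thresholds, the replicate number as a block, and each library left out. The labels do not say more of the replicates than that they are biological, so p-values measure the spread between these libraries. Floors cover counting error only. Sequences were read from TAIR10.1 (RefSeq), and no coordinates were carried between builds. Identity between copies was checked with BLAST 2.17.0.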

Additional observations from a re-analysis of the deposited data

Results flagged for a closer look

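In shoots 3 members had a genotype difference that itself differed between conditions, by a test of that difference (edgeR, adjusted over all genes, with *myc2-3* minus MYC2–FLAG as the difference). For *LHY* the difference was lower at LP than at NC by a log2 change of -3.002 (FDR = 3.35e-08), and at LP +BFO the libraries of both genotypes overlapped. For AT1G52710 the change between LP and NC was 1.22 (FDR = 0.0042), with *myc2-3* lower at NC and not called at LP. For *MYC2* the change between +BFO and −BFO was -1.19 (FDR = 0.0273), and without replicate 3 of MYC2–FLAG at LP +BFO it was -0.88 (FDR = 0.0809).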

How the results depend on the processing

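The same 7 genes were chosen with TMM or DESeq2 scaling, without organellar genes and with the count filter. With a pseudocount of 5, or a threshold of 1.5, 1 gene was higher and 2 were lower. With a pseudocount of 0.5, 6 were higher, AT4G17680 and AT5G38820 being added. Averaging over BFO at each light level gave 23 higher and 27 lower, and a mean difference of 1 without overlap of the 12 libraries gave 4 higher and 6 lower, 5 of them members (both chosen after seeing the data). With 1 library left out, 2 to 6 genes were higher and 3 to 4 lower, with 2 higher without MYC2–FLAG replicate 1 at NC −BFO, when *LHY* and AT3G12900 dropped out.

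Members called in shoots over the 4 conditions, AT2G28240 among them, stayed at 4 with any library left out. They were 4 to 5 at NC −BFO, 4 to 5 at NC +BFO, 3 to 4 at LP −BFO and 3 to 3 at LP +BFO. In roots they were 0 to 0 for BFO in *myc2-3*, 2 to 3 for BFO in MYC2–FLAG, 1 to 2 for LP in *myc2-3* and 0 to 0 for LP in MYC2–FLAG. For the shoot interactions they were 2 to 3 with light and 0 to 2 with BFO. A test against a 2-fold change (glmTreat) called 2 at LP −BFO, 0 for LP in *myc2-3* roots, 1 for the interaction with light and 0 for that with BFO. Under glmTreat AT1G52710 was also lost in shoots at NC −BFO (FDR = 0.713) and at NC +BFO. AT3G41979 was lost in shoots at LP +BFO (glmTreat, FDR = 0.0716), and AT2G28240 for BFO in MYC2–FLAG roots (glmTreat, FDR = 0.406). The interaction with BFO gave 2 calls under DESeq2, 2 with DESeq2 size factors, 2 without a filter and 0 under limma-voom. The cause was not tested. No called value changed its direction. Values near 0 that were not called could, such as *LHY* in shoots at LP +BFO (-0.23 to 0.26 with a library left out).

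Replicate numbers did not pair the samples: of 36 pairs of same-numbered libraries 5 had deviations correlated above 0.1. With the replicate number as a block, LP in *myc2-3* roots had 1 call, AT3G12900 being lost at a log2FC of 0.99, and BFO in MYC2–FLAG roots had 2, AT2G28240 being lost at FDR = 0.0545, and no other count of members called changed. Depth limits AT3G12900 and AT5G08250 in shoots and AT2G28240 in MYC2–FLAG.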
